A study of Mus musculus with 4 samples.

Results

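Bdh1, Oxct1, Acat1, Bcat2, Bckdha, Bckdhb, Dbt and Hibadh encode mitochondrial enzymes of ketone body and branched-chain amino acid catabolism, and Adhfe1, listed with them, encodes a mitochondrial hydroxyacid-oxoacid transhydrogenase. Their transcripts were followed across injured and uninjured mouse heart. The 9 genes were listed by symbol and make up 9 of the 21885 genes counted. All 9 passed the filter on low counts.

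Spatial transcriptomics (Visium, which captures polyadenylated RNA on a grid of barcoded spots) was done on frozen sections of 4 hearts from mice of 8 to 12 weeks. The control was an uninjured heart (n = 1), and the other hearts were taken 3 days (3 dpi, n = 1) and 5 days (5 dpi, n = 2) after myocardial infarction, induced by ligating the left anterior descending coronary artery. Every mouse, the control included, was Collagen1a1-GFP+ and so carried a GFP reporter driven by regulatory sequence of a collagen gene of fibroblasts. Each heart gave 1 section, so neither the control nor the 3 dpi group shows how far hearts of that group differ. Both were labelled female. The hearts at 5 dpi are called 5 dpi-F and 5 dpi-M after their sex labels. Those 2 labels did not go with 4 Y-linked genes, which gave 704 UMIs (unique molecules counted) in 5 dpi-F, 1 in 5 dpi-M and 0 elsewhere.

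Ketone bodies and the amino acids leucine, isoleucine and valine are fuels that heart muscle burns beside fatty acids and glucose. Ketone bodies are oxidised in mitochondria to acetyl-CoA by Bdh1, Oxct1 and Acat1 in turn. Branched-chain amino acids lose their amino group through Bcat2, and the keto acids then pass the branched-chain keto acid dehydrogenase complex, an irreversible step that is switched off by the kinase Bckdk and on by the phosphatase Ppm1k.

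After removal of spots with fewer than 500 UMIs, fewer than 250 genes or more than 50% mitochondrially encoded UMIs, 1146, 1741, 1535 and 1423 spots remained in the control, the 3 dpi, 5 dpi-F and 5 dpi-M sections. They held 6250183 to 11010109 UMIs per section. Levels are given as CPM, counts per 1000000 UMIs outside mitochondrially encoded genes, and as UMIs per 10000 UMIs of 12 cardiomyocyte genes (Myh6, Tnnt2, Tnni3, Actc1, Myl2, Myl3, Pln, Mb, Ckm, Tcap, Ryr2 and Ttn). These 12 genes made up 10.1, 4.53, 1.98 and 3.71% of non-mitochondrial UMIs in the same order. Mitochondrially encoded UMIs made up 40.1, 21.4, 13.3 and 14.3% of all UMIs. All intervals are exact 95% intervals of counting error only. Fewer cells of a type and less RNA per cell cannot be told apart in such spots.

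Across whole sections, all 9 genes were highest in the control on the CPM scale, and 7 of the 9 lay there at least 2-fold above every infarcted section. Of the 8433 genes with a mean of at least 10 CPM, 24% were highest in the control and 4.91% were so by at least 2-fold. The median of all these genes was 0.50, 0.56 and 0.41 log2 units higher in the 3 dpi, 5 dpi-F and 5 dpi-M sections than in the control, whereas the median of the 9 genes was -1.30, -1.82 and -1.37. Of 11 fatty acid oxidation genes with that mean level, 11 were highest in the control, 9 of them by at least 2-fold. Of 14 citric acid cycle genes, 14 were highest there, 10 of them by at least 2-fold. With 1 control heart these differences have no test. When all UMIs formed the denominator, mitochondrially encoded ones included, 2 of the 9 genes lay at least 2-fold above, and the control was 0.888 times (0.700 to 1.12) the highest infarcted section for Bdh1 and 0.836 times (0.730 to 0.955) for Bcat2. The share of all genes was not counted with this denominator.

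Of the ketone enzymes, Oxct1, which transfers coenzyme A to acetoacetate and commits it to oxidation, was counted at 761 CPM in the control, 374 CPM at 3 dpi, 239 CPM in 5 dpi-F and 325 CPM in 5 dpi-M. Acat1, the thiolase that splits acetoacetyl-CoA and also serves isoleucine breakdown, was counted at 312, 108, 52.2 and 93.9 CPM in the same order. Both were lowest in 5 dpi-F, the section with the least cardiomyocyte RNA. Bdh1, which oxidises beta-hydroxybutyrate to acetoacetate, gave 30.7, 24.0, 12.9 and 24.2 CPM. The control lay 1.27-fold (1.0 to 1.61) above the highest infarcted section for Bdh1, against 2.03-fold (1.93 to 2.14) for Oxct1 and 2.90-fold (2.66 to 3.17) for Acat1.

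Of the branched-chain enzymes, Bcat2, the mitochondrial aminotransferase, varied least between sections, with 87.9, 80.1, 60.6 and 63.4 CPM in that order. Its interval in the control overlapped that at 3 dpi. Bckdha and Bckdhb, the subunits of the decarboxylase (E1) of the dehydrogenase complex, gave 257, 103, 81.6 and 99.6 CPM and 67.1, 22.3, 14.7 and 23.6 CPM in the same order. Dbt, its transacylase core (E2), gave 44.4, 18.0, 11.2 and 10.1 CPM. Hibadh, which oxidises 3-hydroxyisobutyrate in the breakdown of valine, gave 170.0, 71.2, 48.0 and 77.0 CPM. For Bckdha, Bckdhb, Dbt and Hibadh the control lay 2.49-, 2.85-, 2.46- and 2.21-fold above the highest infarcted section.

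Adhfe1, a mitochondrial hydroxyacid-oxoacid transhydrogenase, differed most. It was counted at 60.1 CPM in the control, 10.6 CPM at 3 dpi, 3.46 CPM in 5 dpi-F and 9.50 CPM in 5 dpi-M. The control lay 5.66-fold (4.41 to 7.32) above the highest infarcted section.

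Per cardiomyocyte UMI the 9 genes separated. Adhfe1 again stood highest in the control, with 5.94 UMIs per 10000 against 2.35 at 3 dpi and 1.75 and 2.56 at 5 dpi, a 2.32-fold difference (1.78 to 3.03) from the highest infarcted section. The control was at least 2-fold above every infarcted section for 0.107% of genes on this scale. Adhfe1 reached the mean of 10 CPM that defines these genes only through its level in the control, so its place among them is partly set by that filter. Acat1 was also highest in the control, at 30.8 UMIs per 10000 against 23.8, 26.3 and 25.3, an excess of 1.17-fold (1.05 to 1.30). The control was above every infarcted section for 1.52% of all genes. Acat1 lost this place, at 0.985-fold (0.886 to 1.10), when Pln, Mb, Ckm, Tcap, Ryr2 and Ttn alone were the denominator, which left 1 of the 9 genes highest in the control. The share of all genes was not counted with that denominator.

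The opposite order, with the control below every infarcted section, held for Bdh1, Oxct1 and Bcat2, and for 95.4% of all genes. Bdh1 gave 3.03, 5.30, 6.51 and 6.52 UMIs per 10000 across the control, 3 dpi, 5 dpi-F and 5 dpi-M. Bcat2 gave 8.68, 17.7, 30.6 and 17.1, and Oxct1 gave 75.1, 82.7, 121 and 87.8. For Bckdha, Bckdhb, Dbt and Hibadh the control fell within the range of the infarcted sections. With the last 6 cardiomyocyte genes alone as denominator, the control was below every infarcted section for 5 of the 9 genes rather than 3. Without 5 dpi-F, which held the highest value of these 4 genes, Bckdhb and Dbt were highest in the control (Dbt by 1.10-fold, 0.876 to 1.38), which made 4 of the 9 genes rather than 2. Shares of all genes were not counted with that denominator or without that section. Only 128 genes in all were highest in the control on this scale, and the median gene was higher than in the control by 1.66, 2.91 and 1.86 log2 units in the 3 dpi, 5 dpi-F and 5 dpi-M sections, against -0.14, 0.53 and 0.08 for the median of the 9 genes.

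**Figure D1:**
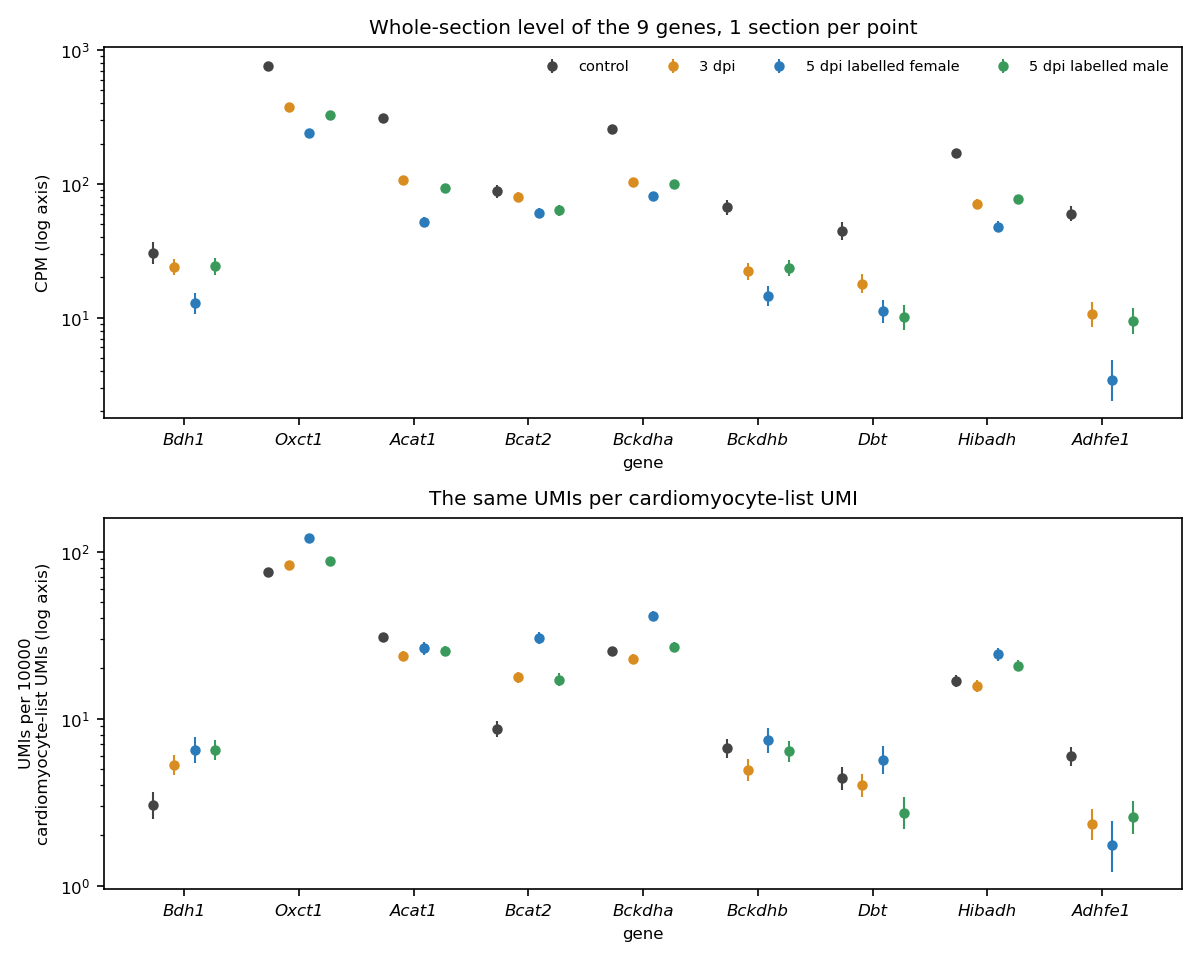
Level of each of the 9 genes in the 4 sections, as CPM (upper panel) and per 10000 cardiomyocyte-list UMIs (lower panel), both on log axes. Points are single sections and bars are exact 95% counting intervals. On the CPM scale the control point is the highest for every gene, whereas per cardiomyocyte UMI it is the highest only for Acat1 and Adhfe1 and the lowest for Bdh1, Oxct1 and Bcat2.

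Spots were then placed in 4 bins by the share of the 12 cardiomyocyte genes in their UMIs, relative to the 90th percentile of their own section: lowest (under 0.25), second-lowest (0.25 to 0.5), second-highest (0.5 to 0.75) and highest (0.75 or more). The lowest bin held 516 spots at 3 dpi and 952 and 591 at 5 dpi, and the highest bin 497, 286 and 509. In the control 1099 of 1146 spots fell in the highest bin and 0 in the lowest. In the control, labelled as heart, 12 of the 12 cardiomyocyte genes were detected. Markers of other cells moved with the bins: the summed level of 7 fibroblast markers was 13841 to 24913 CPM in the lowest bins and 2795 to 4938 CPM in the highest, and that of 8 macrophage markers was 7900 to 10899 and 1219 to 1680 CPM. A list of 5 adipocyte markers stayed at 0 to 34.3 CPM in these bins, where Plin1 was at 0 in every section. Mitochondrially encoded UMIs made up 2.07 to 5.36% of the lowest bins and 28.7 to 40.8% of the highest. The part of these other cells in the results below was not tested.

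In the highest bins, 7 of the 9 genes were highest in the control, against 17.4% of all genes, and 0 of the 9 by 2-fold, against 0.142%. The control was also highest for 9 of 11 fatty acid oxidation genes and 13 of 14 citric acid cycle genes. Markers differed between these bins too. The 12 cardiomyocyte genes summed to 102049 CPM in the control and to 98373, 84743 and 85899 CPM in the 3 dpi, 5 dpi-F and 5 dpi-M sections. Per 10000 cardiomyocyte UMIs, Oxct1 stood at 74.7 in the control and at 68.4, 78.4 and 71.8 in these bins, and so was not highest in the control. Acat1, Bckdha, Bckdhb, Dbt, Hibadh and Adhfe1 stayed highest in the control on that scale. Hibadh stood at 16.8 against 12.3, 11.9 and 16.3, and Adhfe1 at 5.83 against 3.29, 1.86 and 3.41. The share of all genes was not counted there. The summed level of 6 border cardiomyocyte markers (Nppa, Nppb, Myh7, Ankrd1, Sprr1a and Xirp2) was 1234 CPM in the control, with Sprr1a at 0, and 7205, 13922 and 6291 CPM in the 3 dpi, 5 dpi-F and 5 dpi-M sections. The 7 fibroblast markers summed to 1047 CPM in the control against 3094, 4938 and 2795 CPM, the 8 macrophage markers to 748 CPM against 1422, 1680 and 1219 CPM, and 4 erythroid markers to 7640 CPM against 6207, 27406 and 14499 CPM. Their part in these values was not tested. Adhfe1 came closest, with 59.5 CPM in the control and 32.4, 15.8 and 29.3 CPM in the infarcted sections, 1.84-fold (1.37 to 2.51) from the highest infarcted section. With TMM scaling, which corrects for differences in RNA composition, Adhfe1 reached 2-fold, 1 of the 9, with the share of all genes not counted. Bckdhb followed, with 68.1, 44.9, 35.9 and 39.4 CPM, and Acat1, with 312, 231, 171 and 211 CPM.

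Bdh1 went the other way in these muscle-rich spots. It stood at 30.7 CPM in the control and at 43.2, 48.1 and 52.9 CPM in the 3 dpi, 5 dpi-F and 5 dpi-M sections, so that the control was below every infarcted section, as for 40.5% of all genes. The control was 0.711 times (0.526 to 0.965) the 3 dpi section, 0.638 times (0.458 to 0.898) 5 dpi-F and 0.580 times (0.444 to 0.757) 5 dpi-M. Bcat2 showed no such order, with 89.1 CPM in the control and 105, 75.3 and 90.6 CPM in the infarcted sections. Without 5 dpi-F, Bcat2 joined Bdh1 as lowest in the control, giving 2 genes, with the share of all genes not counted.

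Within the 3 infarcted sections, all 9 genes were lower in the lowest than in the highest share bin, each in 3 of 3 sections (edgeR quasi-likelihood test on 12 sums of UMIs with the section as a block, Benjamini-Hochberg adjustment over 10838 genes). Of all genes tested, 28% were lower. The median log2 fold change of the 9 genes was -2.53, beside 0.05 over all genes tested, of which 3164 were higher and 3038 lower. Without TMM the median of all genes was 0.52, with 5508 genes higher and 1910 lower, and all 9 genes remained lower.

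Oxct1 in the lowest and highest bins was 180 and 673 CPM at 3 dpi, 139 and 664 CPM in 5 dpi-F, and 151 and 617 CPM in 5 dpi-M. The level rose from bin to bin in every section (log2 fold change of the lowest against the highest bin -2.53, SE 0.12, edgeR adjusted p = 2.31e-13). Acat1 was 41.3 and 231 CPM at 3 dpi and 31.3 and 171 CPM and 23.8 and 211 CPM at 5 dpi (-3.12, SE 0.19, edgeR adjusted p = 1.08e-11). Bdh1 dropped much more steeply, to 6.84 CPM from 43.2 CPM at 3 dpi and to 2.70 from 48.1 CPM and 2.61 from 52.9 CPM at 5 dpi (-4.12, SE 0.27, edgeR adjusted p = 4.47e-11).

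Bcat2 had the smallest difference of the 9 genes, with 62.5 CPM in the lowest and 105 CPM in the highest bin at 3 dpi, 53.2 and 75.3 CPM in 5 dpi-F, and 45.4 and 90.6 CPM in 5 dpi-M (-1.24, SE 0.14, edgeR adjusted p = 2.39e-07). The dehydrogenase subunits fell by similar amounts on the log2 scale. Bckdha changed by -2.57 (SE 0.16), Bckdhb by -2.28 (SE 0.18) and Dbt by -2.20 (SE 0.26). Bckdha was 37.9, 49.4 and 54.6 CPM in the lowest bins against 236, 201 and 171 CPM in the highest, in the 3 dpi, 5 dpi-F and 5 dpi-M sections. Hibadh was 41.0, 35.5 and 38.7 CPM against 121, 101 and 140 CPM (-2.11, SE 0.14, edgeR adjusted p = 4.09e-11).

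Adhfe1 was near 0 in the lowest bins. It was counted at 1.55, 1.05 and 0.48 CPM there, from 5, 7 and 2 UMIs, against 32.4, 15.8 and 29.3 CPM in the highest bins in the 3 dpi, 5 dpi-F and 5 dpi-M sections. Its fitted log2 fold change was -5.00 (SE 0.32, edgeR adjusted p = 2.31e-11), the lowest of the 9 genes.

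In the second-lowest bin all 9 genes were lower than in the highest bin too, against 15% of all genes tested. In the 3 dpi, 5 dpi-F and 5 dpi-M sections the border cardiomyocyte markers summed to 27207, 27511 and 39534 CPM in this bin, above their sums in both the highest and the lowest bins, the fibroblast markers to 11907, 19082 and 16039 CPM, and the macrophage markers to 3827, 4336 and 3553 CPM. Their part in the values of this bin was not tested. Of all genes 1609 were higher and 1621 lower, or 2848 and 1032 without TMM, where the median of all genes moved from 0.04 to 0.30 and all 9 genes remained lower. Adhfe1 changed by -2.93 (SE 0.34), Acat1 by -1.95 (SE 0.20) and Dbt by -1.62 (SE 0.31) on the log2 scale. Bdh1, at 19.3, 25.7 and 40.2 CPM in this bin in the 3 dpi, 5 dpi-F and 5 dpi-M sections, differed by -1.15 (SE 0.26, edgeR adjusted p = 0.00172). Bcat2 differed least, by -0.68 (SE 0.16, edgeR adjusted p = 0.00237), and in 2 of 3 sections. When the border zone within 2 spot steps of the infarct was set against remote tissue instead, Bdh1 at -0.45 (edgeR adjusted p = 0.283) and Bcat2 at -0.36 (edgeR adjusted p = 0.201) did not pass the threshold of 0.05.

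**Figure D2:**
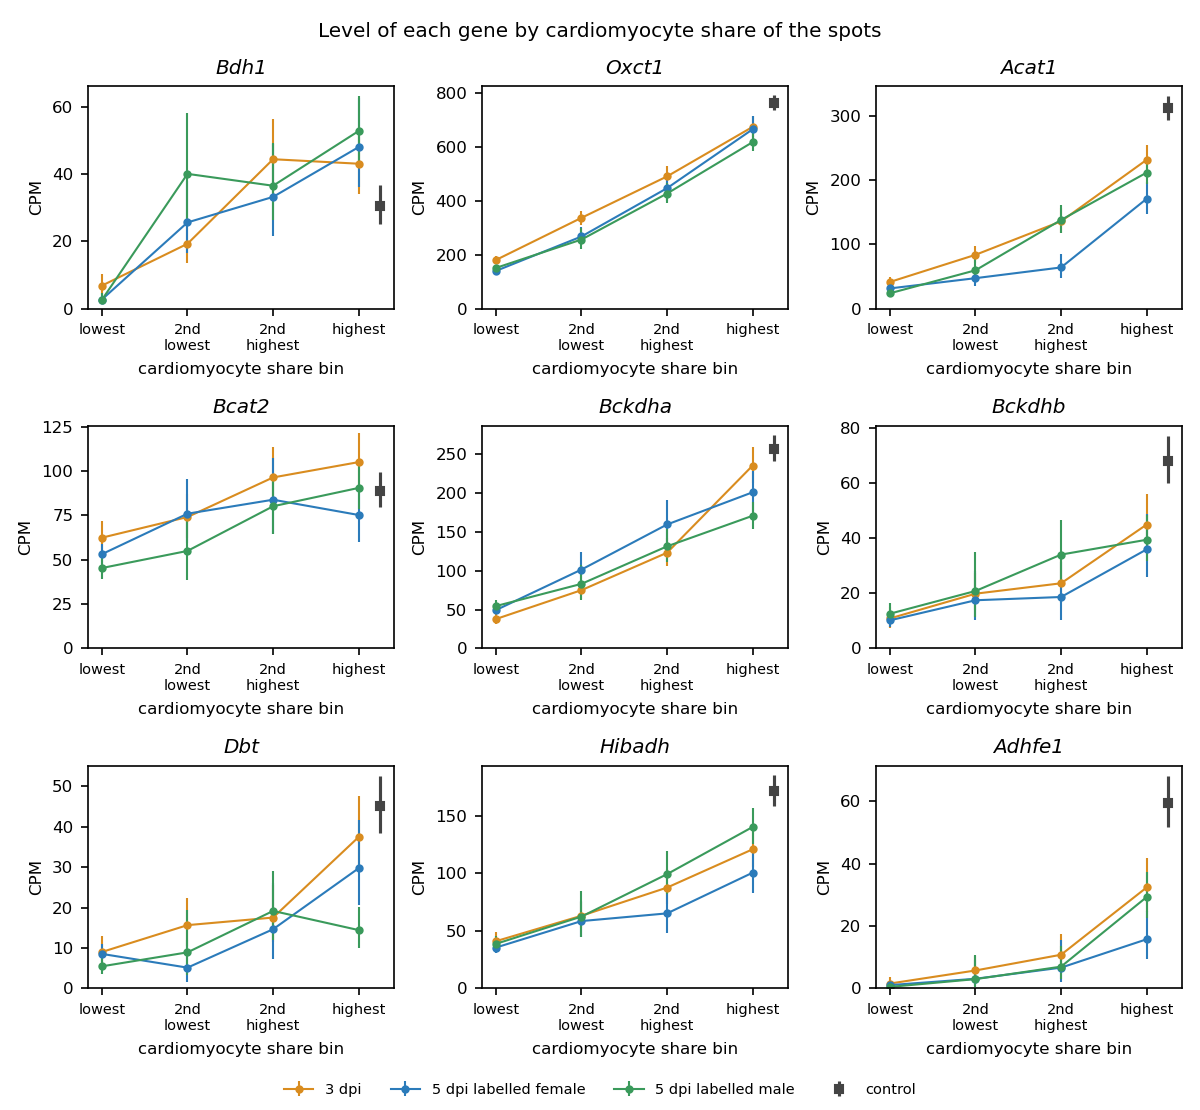
CPM of each gene (vertical axis, linear, from 0) in the 4 cardiomyocyte share bins of the 3 infarcted sections (lines) and in the highest bin of the control (squares), with exact 95% counting intervals. The 5 dpi-F and 5 dpi-M lines are named by their sex labels. Every gene is lowest in the lowest bin of each section, except Dbt in 5 dpi-F, where the second-lowest bin is lower, Bcat2 is the flattest, and Bdh1 is the gene whose control square lies below the highest bin of every infarcted section.

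Per cardiomyocyte UMI, 7 of the 9 genes were higher in the lowest than in the highest bin, against 98.2% of all genes tested, so the share of the 9 is below that of genes in general. The median log2 fold change was 4.50 over all genes tested and 1.93 over the 9. The bins were set by the same 12 genes that form this denominator, and with the list split between bins and denominator the median over all genes was 5.17. Bcat2 rose most, from 10.7, 8.88 and 10.5 UMIs per 10000 in the highest bins to 58.0, 148 and 90.7 in the lowest in the 3 dpi, 5 dpi-F and 5 dpi-M sections (log2 fold change 3.21, SE 0.34, edgeR adjusted p = 6.21e-21). Hibadh changed by 2.35 (SE 0.33), Dbt by 2.23 (SE 0.39), Bckdhb by 2.16 (SE 0.37), Oxct1 by 1.93 (SE 0.32), Bckdha by 1.90 (SE 0.33) and Acat1 by 1.34 (SE 0.32). Without 5 dpi-F, Acat1 stood at 0.83 (edgeR adjusted p = 0.0571).

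Bdh1 and Adhfe1 did not pass the threshold. Bdh1 was 6.35, 7.50 and 5.22 UMIs per 10000 in the lowest bins and 4.39, 5.68 and 6.16 in the highest (0.27, SE 0.39, edgeR adjusted p = 0.501). Adhfe1 was 1.44, 2.92 and 0.95 against 3.29, 1.86 and 3.41, lower in 2 of 3 sections (-0.71, SE 0.54, edgeR adjusted p = 0.194). Without 5 dpi-F, Adhfe1 passed as lower, at -1.47 (edgeR adjusted p = 0.0414), a direction that 0.277% of all genes tested showed in the fit of 3 sections. When the bins were set by the first 6 of the cardiomyocyte genes and the other 6 formed the denominator, the same count of 7 genes was higher, Bdh1 stood at 0.63 (edgeR adjusted p = 0.136) and Adhfe1 at -0.02 (edgeR adjusted p = 0.971).

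In the second-lowest bin, 1 of the 9 genes was higher per cardiomyocyte UMI than in the highest bin and 1 was lower, where 88.4% of all genes tested were higher and 0.424% lower. Bcat2 was the gene that was higher, at 19.2, 24.6 and 16.3 UMIs per 10000 against 10.7, 8.88 and 10.5 (0.96, SE 0.33, edgeR adjusted p = 0.00464). Adhfe1 was the gene that was lower, at 1.49, 1.0 and 0.88 against 3.29, 1.86 and 3.41, in 3 of 3 sections (-1.28, SE 0.53, edgeR adjusted p = 0.0192). The values of Adhfe1 in the second-lowest bins came from 11, 3 and 2 UMIs. The other 7 ranged from -0.31 for Acat1 to 0.56 for Bdh1 and did not pass the threshold.

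Several sections and settings ended these 2 calls. Without 5 dpi-F Bcat2 stood at 0.76 (edgeR adjusted p = 0.102), and without 5 dpi-M Bcat2 stood at 1.12 (edgeR adjusted p = 0.0506) and Adhfe1 at -1.01 (edgeR adjusted p = 0.160). Without the 3 dpi section Bdh1 passed as higher, at 0.74 (edgeR adjusted p = 0.0171). With the cardiomyocyte list split between bins and denominator, Adhfe1 stood at -0.89 (edgeR adjusted p = 0.118), and 4 genes were higher, namely Bcat2 at 1.45, Bdh1 at 0.94, Hibadh at 0.86 and Oxct1 at 0.69. The median of all genes tested moved up as well, from 1.68 in the main fit to 2.22 with the split list. With zones by position neither passed, with Bcat2 at 0.37 (edgeR adjusted p = 0.369) and Adhfe1 at -0.91 (edgeR adjusted p = 0.142). Adhfe1 did not pass with DESeq2 either, at -1.32 (DESeq2 adjusted p = 0.0509), nor with quintiles of the share, at -0.91 (edgeR adjusted p = 0.290), where 4 genes were higher and 0 lower. With quintiles the median of all genes tested was 4.28.

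**Figure D3:**
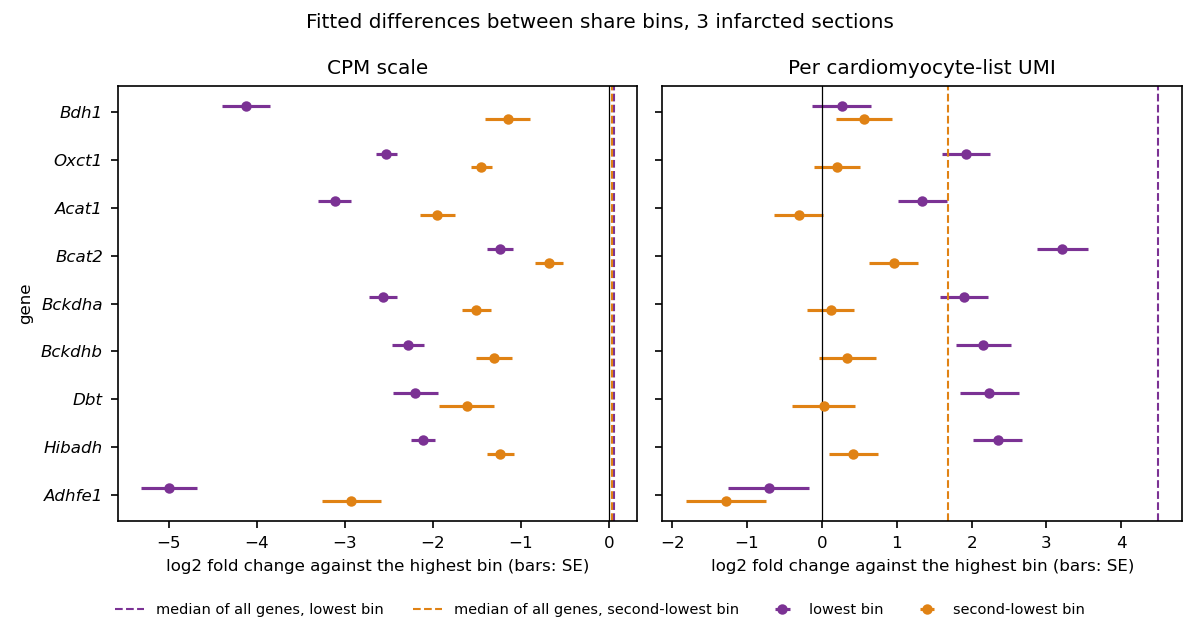
Fitted log2 fold changes of the 9 genes between the lowest (purple) or second-lowest (orange) share bin and the highest bin, on the CPM scale (left) and per cardiomyocyte-list UMI (right), with bars of 1 SE. Dashed lines mark the median of all genes tested. All 9 genes lie left of 0 on the CPM scale, and on the right all of them lie left of the median line of their own bin.

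The share of each gene's UMIs that came from the lowest bin was also counted. The cardiomyocyte list, which set the bins and so is low there by construction, had 9.14% of its UMIs there at 3 dpi, 12.7% in 5 dpi-F and 6.83% in 5 dpi-M, and all non-mitochondrial UMIs had 38.4%, 70.0% and 50.6%. Adhfe1 had 5.62% (1.85 to 12.6), 21.2% (8.98 to 38.9) and 2.53% (0.308 to 8.85), and Bdh1 10.9% (6.99 to 16.1), 14.6% (8.91 to 22.1) and 5.47% (2.76 to 9.58). The values of Adhfe1 rest on 5, 7 and 2 UMIs in the lowest bins. Bcat2 had 30.0% (26.5 to 33.6), 61.4% (57.3 to 65.4) and 36.2% (32.1 to 40.5), the highest of the 9 genes in each section, yet below all UMIs in each. Oxct1, with 18.5%, 40.7% and 23.4%, lay below all UMIs, as did the other 5 genes in every section.

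**Figure D4:**
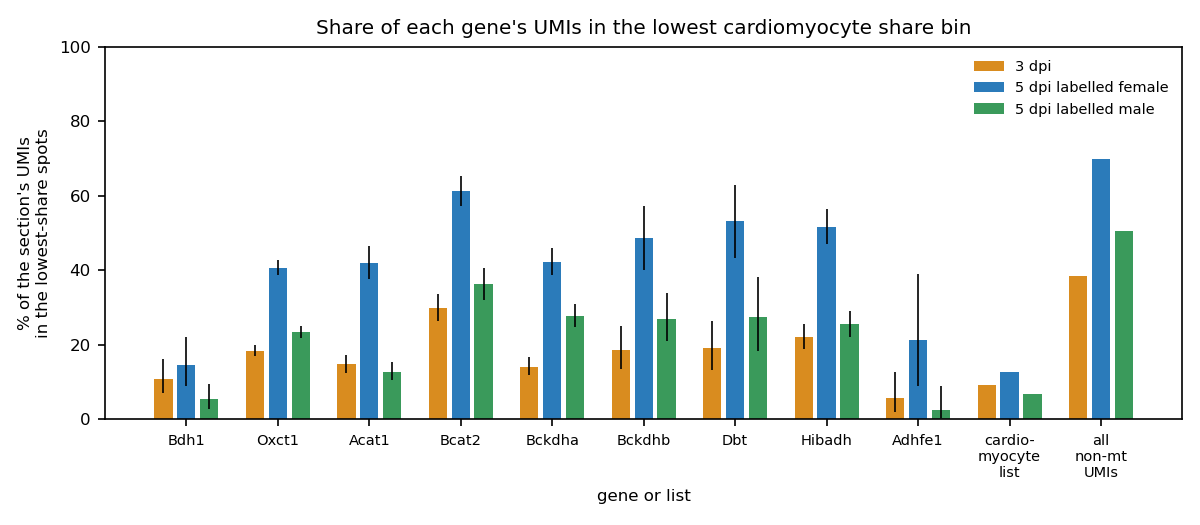
Percent of each gene's UMIs in a section that came from the spots of the lowest cardiomyocyte share bin, with exact 95% intervals for the 9 genes, beside the cardiomyocyte list and all non-mitochondrial UMIs. The cardiomyocyte list set the bins and is low by construction. All 9 genes stand below all UMIs in each section, and Bcat2 stands closest.

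A further 33 genes of these pathways were counted as a list, and 32 of them could be tested. On the CPM scale 24 were lower and 4 higher in the lowest than in the highest bin, with a median log2 fold change of -1.73, and 21 were lower and 4 higher in the second-lowest. Of all genes tested, 28% were lower in the lowest bin and 15% in the second-lowest. The lowest were Klf15, a transcription factor that activates branched-chain amino acid catabolism (-3.89, SE 0.43), Slc16a1, a monocarboxylate transporter that carries ketone bodies and lactate (-3.78, SE 0.21), Hadh, a 3-hydroxyacyl-CoA dehydrogenase (-3.05, SE 0.14), and Aldh6a1, an enzyme of valine breakdown (-2.68, SE 0.22). The phosphatase Ppm1k was among the 4 lowest in the second-lowest bin, at -1.71 (SE 0.28), beside Hadh, Klf15 and Slc16a1. Those that were higher in both bins were Bcat1, the cytosolic branched-chain aminotransferase (3.16, SE 0.26 in the lowest bin), Bdh2, a cytosolic dehydrogenase (2.22, SE 0.33), and Slc3a2 and Slc7a5, the chains of an amino acid transporter of the cell surface (1.29, SE 0.14 and 1.23, SE 0.32). Of 12 fatty acid oxidation genes 11 were tested and 11 were lower in the lowest bin (median -3.25), and of 14 citric acid cycle genes 14 were lower (median -2.83).

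Per cardiomyocyte UMI, 30 of these 32 pathway genes were higher in the lowest bin and 0 lower, and 15 were higher and 0 lower in the second-lowest. Of all genes tested, 98.2% were higher in the lowest bin and 88.4% in the second-lowest. In the lowest bin the highest were Bcat1 (7.56), Bdh2 (6.62), Slc3a2 (5.75) and Slc7a5 (5.66), and those least above 0 among the genes that passed were Hadh (1.40), Aldh6a1 (1.74), Ppm1k (1.77) and Mccc2, a subunit of the carboxylase of leucine breakdown (1.80). In the second-lowest bin the genes that passed with the largest change were Bcat1 (3.53), Bdh2 (3.33), Slc7a5 (2.85) and Acat2, a cytosolic thiolase (2.84), and those with the smallest were Pccb, a subunit of propionyl-CoA carboxylase (0.69), Hsd17b10, an enzyme of isoleucine breakdown (0.81), Mmaa, a factor that serves methylmalonyl-CoA mutase (0.91), and the kinase Bckdk (0.92). In that bin 1 of 11 fatty acid oxidation genes and 1 of 14 citric acid cycle genes were lower and 1 and 0 were higher, beside the median of -0.06 and 0.15 for these lists and 0.20 for the 9 genes.

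On the CPM scale Bcat1 was higher and Bcat2 lower in the lowest than in the highest bin, whereas per cardiomyocyte UMI both were higher. Bcat1 was counted at 3 UMIs in the control, 295 at 3 dpi, 384 in 5 dpi-F and 239 in 5 dpi-M, or 0.802, 35.2, 40.2 and 28.7 CPM. The ratio of Bcat1 to Bcat2 UMIs was 0.00932 (0.00191 to 0.0275) in the highest bin of the control and 0.0324, 0.0930 and 0.0435 in the highest bins of the infarcted sections. In the lowest bins it reached 1.03 (0.844 to 1.26), 0.997 (0.858 to 1.16) and 1.13 (0.922 to 1.38). Along the bins the ratio rose in each section as muscle RNA fell, while no interval of a lowest bin overlapped one of a highest bin. The ratio compares bins and sections, since UMI counts of different genes were not scaled to each other.

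The ratio of the kinase to the dehydrogenase rose toward the lowest bin as well. The ratio of Bckdk to Bckdha UMIs was 0.395 (0.349 to 0.446) in the highest bin of the control and 0.436, 0.404 and 0.535 in those of the infarcted sections. It was 1.43 (1.13 to 1.82), 1.18 (1.02 to 1.38) and 1.03 (0.852 to 1.24) in the lowest bins, with no overlap with the highest bins. The ratio of Bckdk to Ppm1k UMIs was 2.23 (1.85 to 2.70) in the highest bin of the control, 3.18, 4.89 and 3.60 in those of the infarcted sections, and 7.0, 12.2 and 13.1 in the lowest bins. Bckdk itself was lower in the lowest bin on the CPM scale (-1.17, SE 0.13), by less than Bckdha. Whether the ratio of these genes differed within muscle cells, or between muscle and the other cells of a spot, cannot be told apart.

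**Figure D5:**
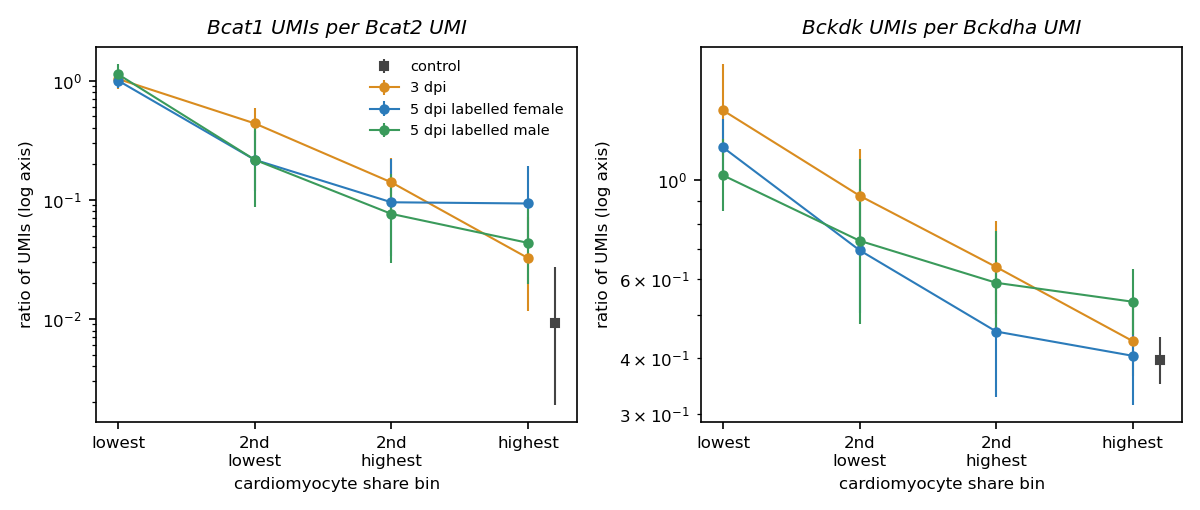
Ratio of Bcat1 to Bcat2 UMIs (left) and of Bckdk to Bckdha UMIs (right) by cardiomyocyte share bin, on log axes, for the 3 infarcted sections (lines) and the highest bin of the control (squares), with exact 95% intervals of counting error. Both ratios are highest in the lowest bin of every section, near 1 for Bcat1 to Bcat2, and lowest in the highest bins.

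The genes whose profile over 14 bins was most like each of the 9 were picked by Pearson correlation of log2(CPM + 1) over 5743 genes, with the 9 genes themselves and the 12 cardiomyocyte genes left out, as a description. The bins share sections and their depth, so the points are not independent. Oxct1 was nearest to Ndufa10 (r = 0.996), Atp5a1 and Uqcrh, which are respiratory chain and ATP synthase genes, and Acat1 to Chchd7 (0.995), Slc25a3 and Ndufa12. Hibadh was nearest to Idh3b (0.993), Ndufb11 and Ndufb2, and Adhfe1 to Etfa (0.984), Eci1 and Ech1, genes of fatty acid oxidation. Bckdhb was nearest to Prdx3 (0.973), Ndufa3 and Hadh, Bckdha to Ak1 (0.968), Gatd3a and Ap4s1, and Dbt to Pccb (0.931), Phb and Hccs. Bdh1 was nearest to Ndrg4 (0.980), Myo18b and Ptgds, and Bcat2 to Agpat3 (0.931), Tmx2 and Oxnad1. Among the 9 genes themselves, the highest correlation was that of Bckdhb with Hibadh (0.983) and the lowest that of Bcat2 with Adhfe1 (0.565).

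Promoter windows of 300 bases, 250 before and 50 after a transcription start, were taken from RefSeq (GRCm38.p6) because all 9 genes were lower where muscle RNA was low. Bdh1, Oxct1, Bcat2, Bckdha, Bckdhb and Hibadh matched, 6 of the 9 genes, with 9 windows in all. AAGGTCA, a site of oestrogen-related receptors, was in 0 of the 9 windows and in 4.72% of all 32851 windows of this length. CACGTG (E-box) was in 0 of 9 and in 7.15% of all. GGGCGG (GC box), which does not overlap the other motifs, was in 3 of 9 windows, 1 each of Hibadh, Bckdhb and Bdh1, and in 35.7% of all; both strands were searched for each motif. Of the genes with a window, Bdh1 had the largest fall from the highest to the lowest bin. Its change in the second-lowest bin, -1.15, was smaller than those of Oxct1, Bckdha, Bckdhb and Hibadh. The windows of Bdh1 and Bckdhb with a GC box, and that of Oxct1 with none, follow, with the GC box of either strand in capitals. They lie at chr16:31428503-31428802 (+), chr9:83924887-83925186 (+) and chr15:4026178-4026477 (+).
Bdh1: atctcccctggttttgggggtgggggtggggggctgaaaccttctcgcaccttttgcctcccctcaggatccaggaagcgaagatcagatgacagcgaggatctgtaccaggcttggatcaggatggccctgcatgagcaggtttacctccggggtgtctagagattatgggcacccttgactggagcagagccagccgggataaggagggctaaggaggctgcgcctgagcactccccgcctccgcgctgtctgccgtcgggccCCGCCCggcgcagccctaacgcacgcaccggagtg
Bckdhb: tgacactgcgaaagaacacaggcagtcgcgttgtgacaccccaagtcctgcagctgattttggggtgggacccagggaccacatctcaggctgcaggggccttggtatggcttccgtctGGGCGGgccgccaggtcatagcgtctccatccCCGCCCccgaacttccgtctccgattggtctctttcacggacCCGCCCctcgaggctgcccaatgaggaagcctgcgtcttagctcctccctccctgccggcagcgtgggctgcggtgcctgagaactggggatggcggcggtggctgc
Oxct1: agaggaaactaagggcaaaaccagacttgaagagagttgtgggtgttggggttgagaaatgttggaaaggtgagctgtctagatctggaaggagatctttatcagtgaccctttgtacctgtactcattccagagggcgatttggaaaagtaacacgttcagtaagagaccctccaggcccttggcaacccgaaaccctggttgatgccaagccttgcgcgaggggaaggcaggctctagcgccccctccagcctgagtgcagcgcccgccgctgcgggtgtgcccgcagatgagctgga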

How the data were processed

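Visium libraries of 4 heart sections were analysed from the raw UMI counts per gene and spot that the authors deposited, made with Space Ranger 1.3.1 per the file headers. The labels' processing notes name mm10, whereas the methods describe an Ensembl-based mouse reference with a GFP sequence added, so the build was not settled. The deposited counts are not normalised. Spots that the position files mark as tissue were kept at 500 or more UMIs, 250 or more genes and 50% or fewer mitochondrially encoded UMIs. In 5 dpi-M, the 5 dpi section labelled male, 623 spots lay outside the tissue mask and were left out. Visium arrays carry a common set of barcodes, so kept spots of any pair of sections shared 328 to 867 barcodes.

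The 9 genes, the gene lists, the share bins and the tests were chosen with earlier results of these data known. UMIs were summed per section and share bin, and edgeR 4.0.16 (R 4.3.3, limma 3.58.1) fitted the 12 infarcted sums by the quasi-likelihood test with the section as a block and the default filter on low counts. The CPM scale used TMM factors, and the scale per cardiomyocyte UMI used the UMIs of the 12 cardiomyocyte genes as library size. Benjamini-Hochberg adjustment ran over 10838 genes with a threshold of 0.05. The fits were also run on simulated counts in which most genes were unchanged. Per cardiomyocyte UMI most genes differed between the bins, so that run cannot speak for that scale. Nothing in the labels gives a second section of a heart, so hearts are the replicates and spots are not. Of the other pathway genes, the text names in each comparison the 4 highest and the 4 lowest that passed with the same direction in 3 of 3 sections. Fatty acid oxidation, citric acid cycle and cell marker lists were described by counts and medians. Alternatives were leaving out each section, no block, DESeq2 1.42.0, no filter, all tissue spots, zones by position, quintiles, a split cardiomyocyte list and other denominators. Values and figures were made with matplotlib 3.10.9, pandas 2.3.3, SciPy 1.17.1 and NumPy 2.4.6 under Python 3.11.15.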

Additional observations from a re-analysis of the deposited data

Results flagged for a closer look

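Bckdha had log2 ratios of opposite sign at 3 and 5 dpi per cardiomyocyte UMI. Between the second-lowest and the highest share bin its log2 ratio was -0.30 at 3 dpi and 0.47 in 5 dpi-F and 0.31 in 5 dpi-M, and over the 3 sections it did not pass the threshold (0.12, edgeR adjusted p = 0.727). Between whole sections and the control its log2 ratio was -0.15 at 3 dpi, 0.70 in 5 dpi-F and 0.084 in 5 dpi-M. The control was 1.11 times (1.01 to 1.22) the 3 dpi section, 0.615 times (0.559 to 0.677) 5 dpi-F and 0.944 times (0.859 to 1.04) 5 dpi-M, so the difference from 5 dpi-M was within counting error.

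Hibadh had log2 ratios to the control of -0.094 at 3 dpi, 0.53 in 5 dpi-F and 0.31 in 5 dpi-M. The control was 1.07 times (0.953 to 1.20) the 3 dpi section, a difference within counting error, and 0.692 times (0.613 to 0.783) 5 dpi-F and 0.808 times (0.723 to 0.903) 5 dpi-M. These differences between the time points were not tested, since 3 dpi is a single heart.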

How the results depend on the processing

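The 9 genes stayed lower in the lowest than in the highest bin on the CPM scale under all 11 alternatives, including each left-out section, DESeq2 and zones by position. In the second-lowest bin on that scale the count of members stayed within 1.5 times, while 848 genes in all passed with zones by position and 5049 with quintiles, against 3230.

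Per cardiomyocyte UMI, leaving out each section gave 0 to 1 members lower in the lowest bin, and 0 to 2 higher and 0 to 1 lower in the second-lowest. In the second-lowest bin DESeq2 gave 0 members lower. Zones by position gave 2297 genes against 9627, with 0 members higher and 0 lower. Quintiles and the split list each gave 4 members higher and 0 lower, while the median of all genes was 4.28 and 2.22, against 1.68. The cause of these shifts was not tested.

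For sections, 2 rather than 7 members were at least 2-fold above with all UMIs as denominator, where Bdh1 reversed to 0.888. Per cardiomyocyte UMI the control was highest for 1 gene and lowest for 5 with the last 6 cardiomyocyte genes as denominator, where Acat1 reversed to 0.985, and leaving out a 5 dpi section gave 2 to 4 genes with the control highest and a control-to-infarcted ratio of 0.774 to 1.10 for Dbt. In the highest bin TMM scaling gave 1 gene at least 2-fold above, and leaving out a 5 dpi section gave 1 to 2 genes with the control lowest. For these comparisons of sections, shares of all genes were counted in the main setting only.

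Bins were compared within sections, with the section as a block. Between the control and the infarcted sections, which have no test, no pairing exists. No paired analysis of those groups was possible because their sections come from different hearts. Counts of Adhfe1, at most 7 UMIs a section in the lowest bins and 11 in the second-lowest, limit the precision of its values there.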

Other observations

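The 623 spots outside the tissue mask of 5 dpi-M held UMIs of all 9 genes, at levels below those of the control: Oxct1 at 171 CPM (155 to 189), Acat1 at 77.2 CPM (66.1 to 89.6), Bckdha at 62.4 CPM (52.4 to 73.6), Bcat2 at 51.6 CPM (42.6 to 61.9) and Hibadh at 48.0 CPM (39.3 to 58.0). Bdh1 and Adhfe1 each stood at 5.38 CPM (2.78 to 9.40) there. The 12 cardiomyocyte genes summed to 16906 CPM in these spots and to 101295 CPM in the control, and the part of this difference in the levels was not tested.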
